A study of Gallus gallus with 12 samples.

Results

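In chicken interdigital tissue, 155 of the 10210 genes examined had a lower share of the reads in every one of 4 particular libraries than in any of the other 8. The 4 libraries were those with replicate numbers 2 and 6, and each number has a Noggin library and a PBS library. The members were chosen from these same values: a gene had to average at least 5 CPM over the 12 libraries (CPM are the reads of a gene per 1000000 reads), which 10210 of the 30108 genes in the table did, and each of the 4 libraries had to lie below each of the 8. The rule thus took 1.52% of the genes it examined, and that share and the difference between the 4 and the 8 libraries are given here as descriptions, without a test.

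The tissue was interdigital region 3 of the chicken hindlimb, the web between forming digits. Beads carrying Noggin (6 libraries) or phosphate-buffered saline (PBS, 6 libraries) had been in place for 12 h, from Hamburger-Hamilton stage 30. Both groups underwent bead implantation, with the other kind of bead in the opposite limb, and the labels give no strain, genotype or sex. Replicates are numbered 1 to 6 in each group, and the labels do not say whether a number stands for one embryo or whether tissue was pooled, so p-values measure only the spread between these samples.

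Noggin is an extracellular antagonist that captures bone morphogenetic proteins (BMPs) before they reach their receptors. BMP signalling promotes the programmed cell death that removes interdigital tissue. In birds, males carry a pair of Z chromosomes and females a single Z beside a W, and compensation for this difference in Z dose is known to be partial and to vary from gene to gene. The 155 genes had been proposed as Z-linked candidates that are lower in female embryos. Neither part of that proposal could be checked by name. The table lists Ensembl identifiers, none of which (0) was paired with a symbol or a chromosome in the reference table used here. No marker of sex, cell type or tissue could therefore be read, no gene is named by function, and the genes are described by their values and by their place in the table.

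Sequencing depth did not divide the libraries in the same way. The libraries numbered 2 and 6 held 1793636 to 3513398 reads and the other 8 held 1624309 to 3172663. The labels of the libraries numbered 6 need care for any statement about beads. Among 1484 genes that differed between beads in numbers 1 to 5 (limma with the replicate number as a block), 84.7% had the opposite direction between the 2 libraries labelled Noggin 6 and PBS 6. Bead results are given with and without them. The difference that defines the 155 genes involves both beads of both numbers.

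The lower level was of similar size in all 4 libraries. Each member's CPM was divided by its mean in the 8 other libraries, and the median over the 155 genes was 0.611 in Noggin 2, 0.572 in PBS 2, 0.586 in the library labelled Noggin 6 and 0.605 in the library labelled PBS 6. In the other 8 libraries the same median lay between 0.972 and 1.01. Together the members took 2.17% ± 0.0424 of all reads in the 4 libraries (SD, n = 4) and 3.48% ± 0.0900 in the 8 (SD, n = 8). The rule fixes that these shares separate, and the lowest of the 8 was 3.41% and the highest of the 4 was 2.22%. These are bulk samples, in which fewer cells of a type and less RNA per cell cannot be told apart.

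**Figure D1:**
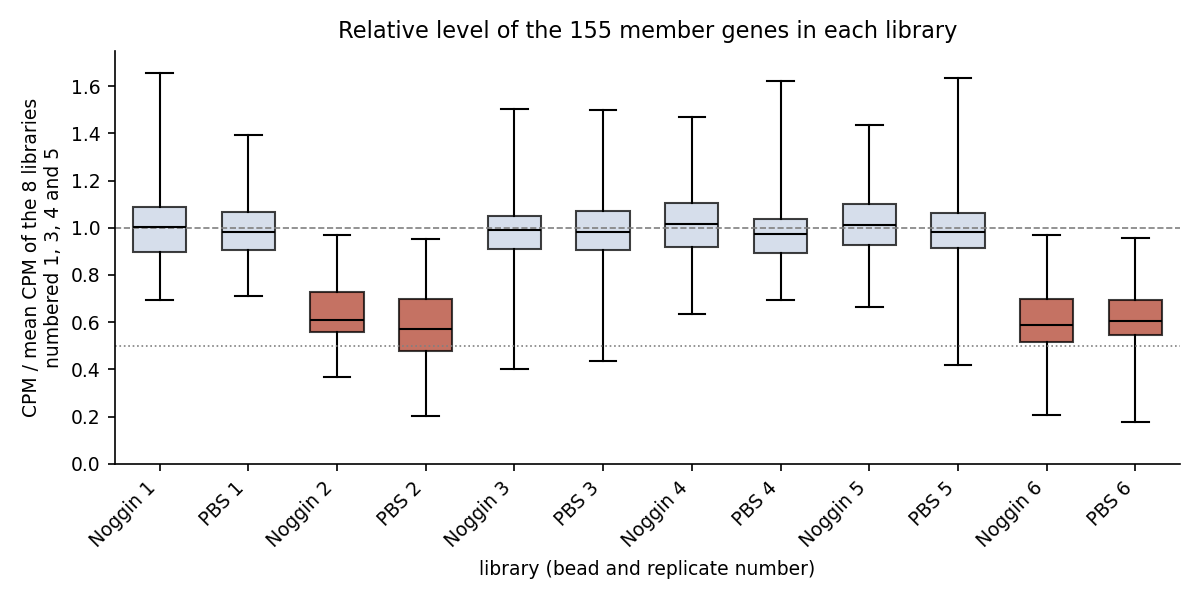
Level of the 155 genes in each library, as CPM divided by the gene's mean CPM in the 8 libraries numbered 1, 3, 4 and 5 (boxes, quartiles and median; whiskers, lowest and highest gene). The boxes of the 4 libraries numbered 2 and 6 (red) have medians of 0.572 to 0.611, against 0.972 to 1.01 in the others; the dotted line marks 0.5 and the dashed line 1.

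The member with the highest mean CPM had the most reads behind its ratio. ENSGALG00010011192 stood at 3030 CPM in Noggin 2, 2942 in PBS 2, 3126 in Noggin 6 and 3046 in PBS 6. In the other Noggin libraries it stood at 5985 CPM (number 1), 5508 (3), 5615 (4) and 5796 (5), and in the other PBS libraries at 5700, 5756, 5903 and 5810 CPM. The rule requires that the groups do not overlap. Here the highest of the 4 was 3126 CPM and the lowest of the 8 was 5508 CPM. The means were 3036 ± 75.4 CPM (SD, n = 4) and 5759 ± 152 CPM (SD, n = 8), a ratio of 0.527. For the ratio of the pooled reads of the 4 and the 8 libraries, counting error alone gives a 95% interval of 0.520 to 0.534 (exact binomial). This interval does not hold 0.5. ENSGALG00010016308, the member with the next highest mean, gave nearly the same picture. It stood at 2471 CPM in Noggin 2, 2590 in PBS 2, 2523 in Noggin 6 and 2294 in PBS 6. The other Noggin libraries held 4881, 4506, 4716 and 4766 CPM and the other PBS libraries 4729, 4587, 4628 and 4522 CPM, in the order of their numbers. Its ratio was 0.529 (counting interval of the pooled reads, 0.518 to 0.533). The third member by mean CPM had a ratio of 0.539. CPM are not scaled by transcript length, so these values rank reads and not transcript numbers.

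Over all 155 genes the ratio of the mean CPM in the 4 libraries to that in the 8 had a median of 0.590, with quartiles of 0.539 and 0.660, and ran from 0.282 to 0.961. The genes therefore lay mostly above 0.5 and not around it. Only 15 of the 155 had a ratio below 0.5, 67 lay from 0.5 to 0.6, 47 from 0.6 to 0.7 and 26 at 0.7 or above. A ratio between 0.45 and 0.55 was found for 43. The median over all 10210 genes was 0.981. Counting intervals are for the ratio of pooled reads, whose median was 0.594. They lay wholly above 0.5 for 99 members, held 0.5 for 54 and lay wholly below it for 2. Against the spread between libraries, 91 members lay above a log2 difference of -1 by more than 2 standard errors and 64 within 2 standard errors of it (limma, log2(CPM + 1), no p drawn from this contrast). On that scale a difference is somewhat understated for genes with few reads. These counts are a description and not a test, because the rule chose the genes by the same contrast. The standard errors also take the libraries as independent.

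The spread exceeded the standard errors of single genes, which take the libraries as independent. The log2 differences of the members had an SD of 0.24, while the root mean square of their standard errors was 0.15. For the 129 members among the last 460 genes of the table with at least 5 CPM, these values were 0.20 and 0.15. The requirement that all 4 libraries lie below all 8 shapes both ends of this spread, because a gene with few reads meets it more readily with a low ratio. Members of 5 to 10 CPM had a median ratio of 0.513, with the highest at 0.722.

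**Figure D2:**
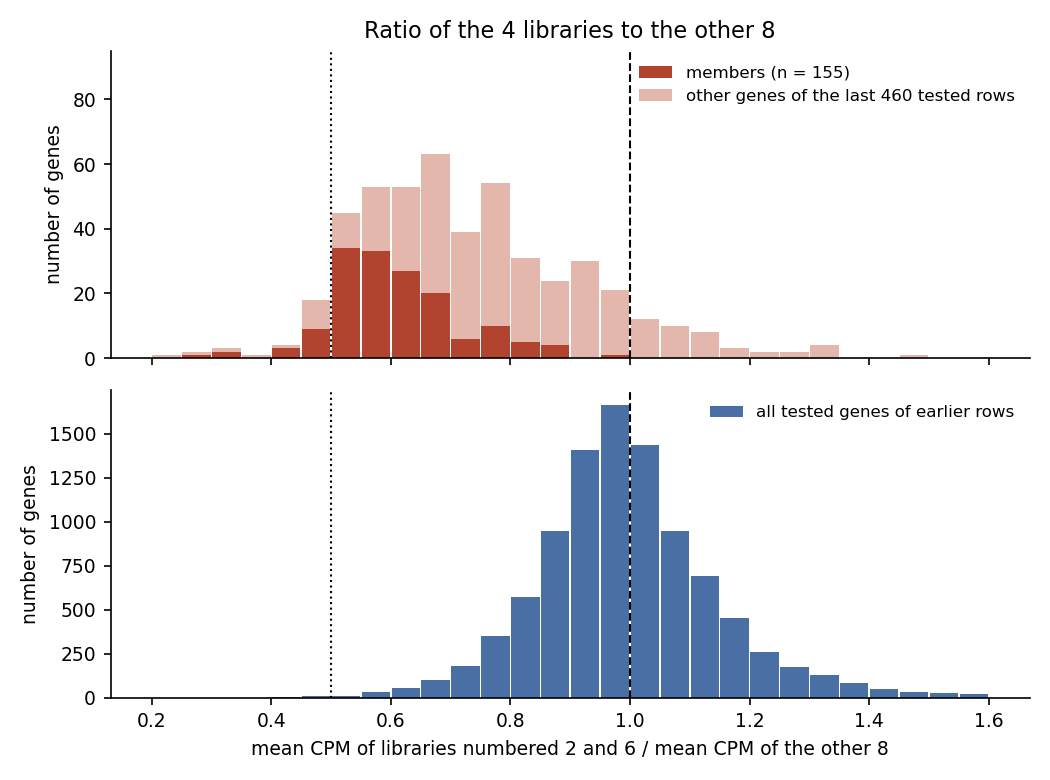
Number of genes by the ratio of mean CPM in the libraries numbered 2 and 6 to mean CPM in the other 8, in steps of 0.05. The upper panel stacks the 155 members (red) on the 331 other genes of the last 460 tested rows (pink), and the lower panel shows all 9750 tested genes of earlier rows, 26 members included; 2 and 99 genes of the latter groups lie beyond the axis. Members centre near 0.590 and earlier rows near 0.987.

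The members at both ends of the range were of different kinds. The lowest ratio, 0.282, belonged to a gene with a mean of 7.51 CPM, whose 4 low libraries held 28 reads in all. Its counting interval ran from 0.187 to 0.430, and among its 8 higher libraries the values ranged from 3.96 to 16.4 CPM. The next lowest, 0.316, belonged to a gene at 5.37 ± 1.80 CPM in the 4 libraries (SD, n = 4) and 16.98 ± 4.82 CPM in the 8 (SD, n = 8). The highest ratio, 0.961, belonged to a gene with many reads and little spread, at 3190 ± 32.5 CPM (SD, n = 4) against 3318 ± 45.4 CPM (SD, n = 8). Its highest low library (3217 CPM) and lowest other library (3238 CPM) were close. The rule admits a small difference of this kind wherever libraries vary little. The member closest to the limit of the rule had 19.852 CPM in its highest low library and 19.857 CPM in its lowest other library. The nearest gene outside had 379.97 and 379.01 CPM, with a ratio of 0.844.

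Median ratios differed little between members with few and with many reads, while their spread was widest among those with few. In the 39 members with the lowest mean CPM (6.26 to 25.3 CPM) the median ratio was 0.570. In the next groups of 39, 38 and 39 genes by rising CPM it was 0.602, 0.602 and 0.591. The SD of the log2 ratio was 0.33 in the lowest group and 0.21, 0.23 and 0.26 in the others. The median standard error of the log2 difference was 0.20, 0.15, 0.13 and 0.09 in the same order. Of the 15 ratios below 0.5, 8 were in the lowest group and 2 in the highest. Across the 155 genes, log2 ratio and log2 mean CPM had a Pearson r of 0.196 and a Spearman rho of 0.133, given as a description because the genes share libraries and the rule acts on both measures. Over the 460 genes of the last rows of the table, members and non-members together, rho was -0.119, of the opposite sign. At 100 CPM or more, where counting error is small, the 30 members had a median ratio of 0.583 with quartiles of 0.537 and 0.673.

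The members stood together in the table, a property the rule did not use. Of the 155, 129 (83.2%) were among the last 460 genes of at least 5 CPM, from row 28468 to the last row, 30108. Those 460 genes are 4.51% of the genes examined, and 28.0% of them were members, against 0.267% of the genes in earlier rows. The extent of 460 genes was chosen after the ratios were seen. The table does not say what its row order stands for, and no chromosome is assigned to these rows here. In the 250 examined genes just before them there were 0 members. Those 250 rows instead held 37 of the 56 genes that were higher in each of the 4 libraries than in each of the 8 (0.548% of genes examined), with 1 more of the 56 inside the last 460.

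The low ratio was not limited to the members in those last rows. The 331 genes there that missed the rule had a median ratio of 0.782 (quartiles 0.671 and 0.914), and 191 of them (57.7%) were below 0.8. Their median relative level was 0.775 to 0.797 in the libraries numbered 2 and 6 and 0.950 to 1.04 in the other 8. Taking members and non-members together, the 460 genes had a median ratio of 0.697, 320 of them (69.6%) lay below 0.8, and 72 (15.7%) lay between 0.9 and 1.1. In earlier rows the median was 0.987 and 7.64% lay below 0.8. Of the 27 genes there with a ratio below 0.5, 13 were members and 14 were not, and of the 96 from 0.5 to 0.6, 65 were members. The median of 0.590 thus describes the genes the rule selected and not all low genes of these rows.

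**Figure D3:**
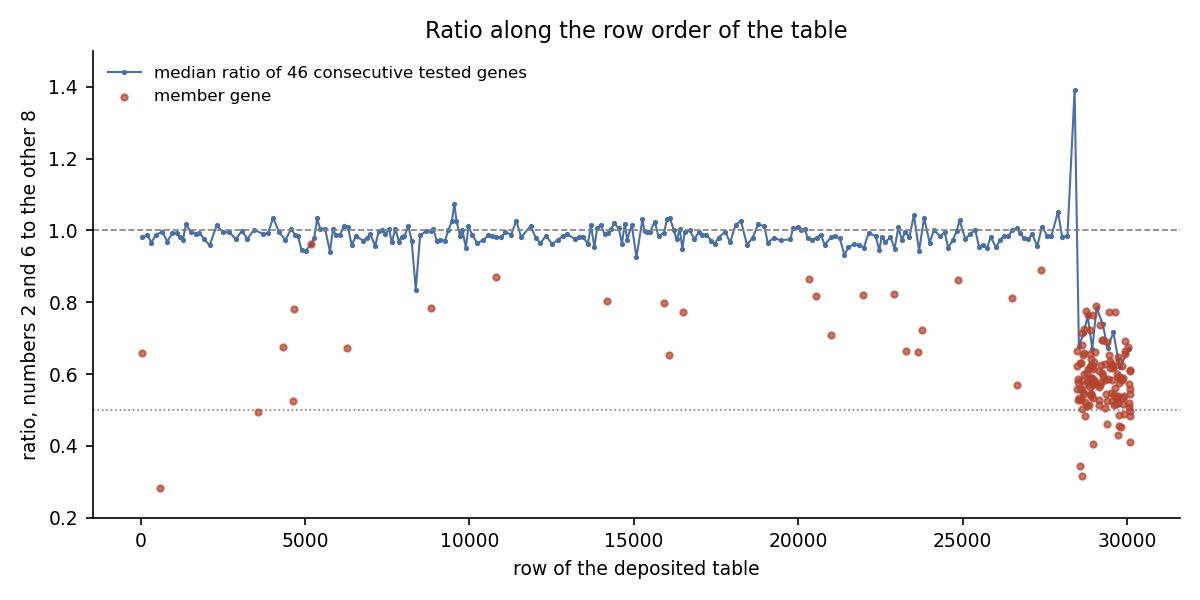
Ratio of the libraries numbered 2 and 6 to the other 8 (vertical axis) by row of the deposited table (horizontal axis), as medians of 46 consecutive examined genes (blue line) and as single members (red points). The line stays between 0.835 and 1.39 before row 28468, with its highest point just before it, and between 0.619 and 0.785 after it.

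Within the last rows, members were found throughout. In 10 consecutive stretches of 46 examined genes, the number of members was 7 to 17. The median ratio of a stretch ran from 0.619, in rows 29710 to 29885, to 0.785, in rows 29011 to 29200. The stretch with the lowest median had 2 genes at a ratio of 0.9 or more and the one with the highest had 16. In the 211 full stretches of earlier rows no stretch had more than 2 members.

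In the last rows, the share of genes that were members rose with expression level. Of the 89 genes of the last rows with a mean of 5 to 10 CPM, 4 (4.49%) were members, and of the 42 with 100 CPM or more, 26 (61.9%) were. The share below a ratio of 0.8 moved less, from 59.6% of the former to 78.6% of the latter, and the median ratios were 0.782 and 0.620. The median standard error of the log2 difference was 0.30 in the former and 0.09 in the latter. At the low end a ratio near 0.6 is thus often not separable from the spread between libraries at this depth. Among the 42 genes of 100 CPM or more the log2 differences had an SD of 0.38, against a root mean square standard error of 0.15. Ratios there thus differed from gene to gene by more than this error, which takes the libraries as independent.

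**Figure D4:**
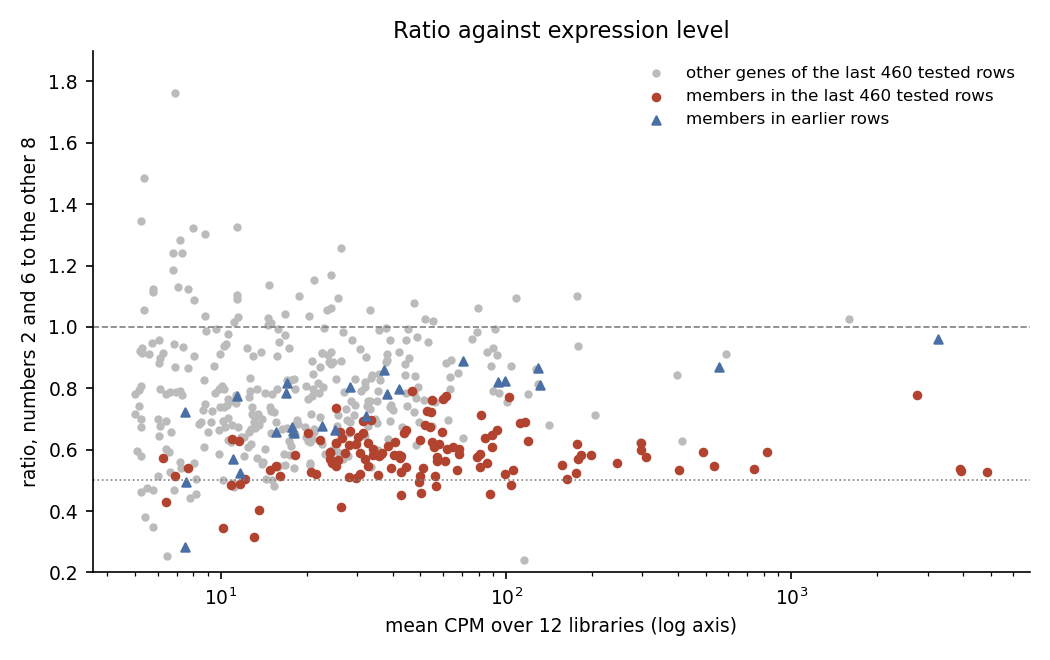
Ratio of the libraries numbered 2 and 6 to the other 8 against mean CPM over the 12 libraries (log axis), for the members in the last 460 examined rows (red), the members in earlier rows (triangles) and the other genes of the last rows (grey). One grey gene with a ratio of 4.89 lies above the axis. Members of the last rows lie between 0.316 and 0.790 at all levels.

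The 26 members in earlier rows differed in several values from the 129. Their median ratio was 0.777 (quartiles 0.662 and 0.820), against 0.583 (quartiles 0.533 and 0.629). All 10 members with a ratio of 0.8 or more were among the 26. The gap between the lowest of the 8 libraries and the highest of the 4 had a median of 0.03 on the log2 scale in the 26 and 0.21 in the 129. After scaling of the libraries by TMM (trimmed mean of M-values), 132 genes met the rule, all of them among the 155, and 120 of these were in the last rows. The scaling thus removed 9 of the 129 and 14 of the 26.

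The median ratio was nearly the same in both numbers and under both beads. This is partly built in, because the rule asks that the 4 libraries of both numbers and both beads lie below all 8. Number 2 alone gave a median ratio of 0.585 and number 6 alone 0.596, and 81 of the 155 genes had the higher ratio in number 2. The ratio of number 2 to number 6 had a median of 1.004 and quartiles of 0.913 and 1.10. Within Noggin libraries the median ratio was 0.5998 and within PBS libraries 0.603, with 76 of the 155 genes higher under Noggin. These values include number 6 as labelled, and numbers 2 and 6 ran in opposite directions. In number 2, 101 of the 155 genes stood higher in the Noggin library (65.2%, against 53.9% of all genes). In number 6, 70 stood higher under the Noggin label (45.2%, against 49.8%). Whether the ratio differed between beads was fitted for each gene as an interaction of bead with the 4 against the 8 libraries. The rule bears on this contrast too, because a gene whose ratio differs strongly between beads is less likely to keep all 4 libraries below all 8. The middle 90% of the estimates ran from -0.42 to 0.49 in the members and from -0.75 to 0.78 over all genes (log2), so the members' count is given as a description. By limma, 0 members fell under an adjusted p of 0.05 over the 10210 genes, and 0% of all genes did. The smallest adjusted p of a member was 0.681 (limma). Unadjusted, 6 members (3.87%) and 6.31% of all genes had a p below 0.05 (limma). Without number 6, where the low libraries are 1 per bead and are assumed to vary like the other libraries, the count of members was again 0, with 7 at an unadjusted p below 0.05, and 0.0294% of all genes passed. With all 12 libraries the interaction had a median standard error of 0.27 in the members (log2). The tests therefore do not show that the ratios of single genes were equal. The estimates ran from -0.82 to 1.20, and the highest of them belonged to the gene with the ratio of 0.316, which had 52 reads in the 4 low libraries together. For ENSGALG00010011192 the interaction was 0.04 ± 0.07 (log2, SE) and for ENSGALG00010016308 it was -0.01 ± 0.07.

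The number of members that differed between the beads depended on the fit. With all 12 libraries as labelled, 0 of the 155 differed between Noggin and PBS at an adjusted p of 0.05 (limma), where 0.118% of all genes did. An unadjusted p below 0.05 was found for 1 member (0.645%) and for 13.9% of all genes (limma). In numbers 1 to 5 the count was 0 again without pairing, where 10.8% of all genes passed. There 7 members (4.52%) and 22.9% of all genes had an unadjusted p below 0.05 (limma). That fit leaves the low level of number 2 in the error of every member. With the replicate number as a block, 14 members passed, 12 higher and 2 lower with Noggin, which is 9.03% of the 155 against 14.5% of all genes. Of all genes, 9.03% were called higher and 5.5% lower. With the block and all 12 libraries the count was 0, and 0% of all genes passed. In that fit 20 members (12.9%) and 13.2% of all genes had an unadjusted p below 0.05 (limma). A gene with a large bead response is less likely to keep all 4 libraries below all 8, so the members' share is not read as a lower response. The changes of the 14 had sizes of 0.19 to 0.54 and a median of 0.37 on the log2 scale. The median over all 1484 genes called was 0.60. The rule limits the size of a member's bead change in the same way, so this difference is given as a description. All 14 were in the last rows of the table, and their ratios of the 4 to the 8 libraries ran from 0.520 to 0.713.

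ENSGALG00010013183 had the largest rise among them. In number 1 the Noggin library held 232 CPM and its PBS partner 168, and in number 2 they held 151 and 88.1 CPM. In numbers 3, 4 and 5 the Noggin libraries held 218, 224 and 265 CPM and the PBS libraries 171, 180 and 163 CPM. Noggin was the higher library in all 5 numbers, although Noggin 2 lay below 4 of the 5 PBS libraries. Its log2 change was 0.54 ± 0.08 (SE, adjusted p = 7.12e-07, limma with the block), and the means were 218 ± 41.6 and 154 ± 37.4 CPM (SD, n = 5 each). In number 6 the order was the opposite, with 119 CPM under the Noggin label and 142 CPM under the PBS label.

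ENSGALG00010012196 had the next largest rise, 0.52 ± 0.14 (log2, SE, adjusted p = 0.00891, limma with the block). It stood at 65.0, 31.3, 43.6, 60.5 and 47.9 CPM in Noggin 1 to 5 and at 35.4, 19.0, 48.6, 34.6 and 38.7 CPM in PBS 1 to 5. Noggin was higher in 4 of the 5 numbers, with number 3 the exception. The means were 49.7 ± 13.5 and 35.3 ± 10.7 CPM (SD, n = 5 each). In number 6 the Noggin label had 23.6 CPM and the PBS label 27.2 CPM.

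The 2 members that fell were ENSGALG00010001156 and ENSGALG00010007259. ENSGALG00010001156 stood at 103, 55.8, 96.6, 101 and 116 CPM in Noggin 1 to 5 and at 117, 71.9, 127, 153 and 130 CPM in PBS 1 to 5. PBS was higher in every one of these numbers, and the log2 change was -0.32 ± 0.09 (SE, adjusted p = 0.0148, limma with the block). The Noggin mean was 94.4 ± 22.8 and the PBS mean 119.7 ± 29.8 CPM (SD, n = 5 each). In number 6 the order turned, with 66.3 CPM under the Noggin label and 51.4 CPM under the PBS label. ENSGALG00010007259 stood at 83.7, 62.0, 88.6, 89.1 and 89.5 CPM in Noggin 1 to 5 and at 111, 70.2, 116, 104 and 127 CPM in PBS 1 to 5. Its log2 change was -0.32 ± 0.10 (SE, adjusted p = 0.0188, limma with the block), and the means were 82.6 ± 11.7 and 105.5 ± 21.4 CPM (SD, n = 5 each). It was also lower under the Noggin label in number 6, at 61.6 against 67.3 CPM. Without the block, the adjusted p of these 4 genes in numbers 1 to 5 was 0.186, 0.187, 0.506 and 0.136 in the order given (limma). With all 12 libraries as labelled, their log2 changes were 0.41, 0.40, -0.21 and -0.28. The adjusted p was then 0.464, 0.525, 0.815 and 0.423 without the block and 0.164, 0.291, 0.444 and 0.209 with it (limma). In numbers 1 to 5 with the block, the call of ENSGALG00010013183 held when any of the 5 numbers was left out (adjusted p up to 5.82e-05, limma), and the calls of the other 3 did not. The adjusted p of ENSGALG00010012196 was 0.0885 without number 1 and 0.0736 without number 4. That of ENSGALG00010001156 was 0.051 without number 3 and 0.138 without number 4, and that of ENSGALG00010007259 was 0.0532, 0.0573 and 0.12 without numbers 1, 3 and 5 (limma with the block).

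Read by number, the 14 members kept to one direction except in number 6. In numbers 1, 2 and 5 all 14 had the direction of the fit, and in numbers 3 and 4 13 had it. These numbers had chosen the 14, so this agreement is no separate evidence. In number 6, which the fit had not used though the rule had, 2 of the 14 had that direction and 12 the opposite one. Their median there was -0.21 on the log2 scale along the direction of the fit. Of all 1484 genes called in that fit, 1257 (84.7%) were opposite in number 6, so the reversal is not particular to the members. When a further number was left out, 7 to 12 of the 14 stayed past the threshold and all 14 kept their direction, and the lowest count came without number 5.

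**Figure D5:**
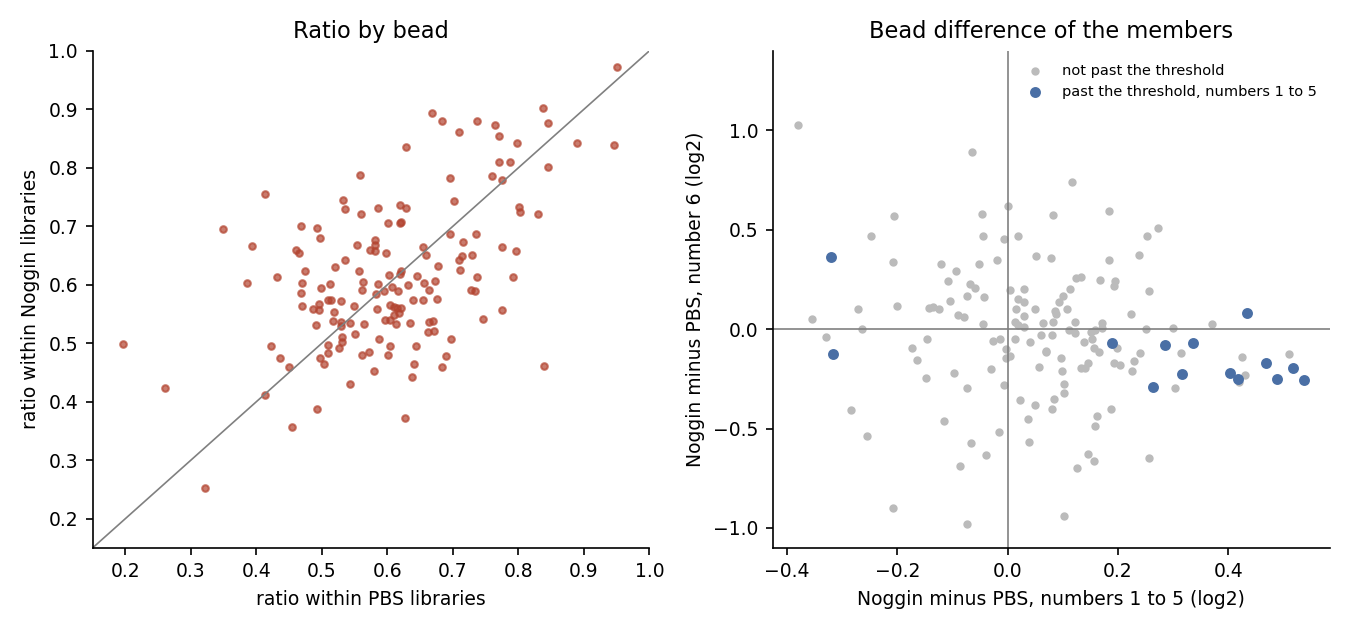
Left, ratio of the libraries numbered 2 and 6 to the others within Noggin libraries (vertical axis) and within PBS libraries (horizontal axis) for the 155 genes, with the line of equality. Right, Noggin minus PBS on the log2 scale in number 6 (vertical axis) and in numbers 1 to 5 (horizontal axis). Of the 14 members past the threshold in numbers 1 to 5 (blue), 12 have the opposite sign in number 6, as do 84.7% of all 1484 genes past it.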

How the data were processed

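A single table of 30108 genes and 12 libraries was used. The deposited values are natural log values: the exponential minus 1 sums to 1000000 in every column, so they were read as ln(CPM + 1). All values above 0 were then whole multiples of 1 read within 0.001 read, which gave totals of 1624309 to 3513398 reads; a count of 0 allows up to 0.854 to 1.85 CPM, taking 3 reads as the limit. Intervals and limits cover counting error only. Per the labels' protocols, libraries were made from 180 ng of RNA by Lasy-Seq version 1.1. Salmon, BWA 0.7.17-r1188 and fastp 0.21.0 are listed, per the submitters' processing notes. How these were used, and the build and annotation, are not stated in the labels.

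Each column was tied to its library by the code that the label carries. The members, the lists and the tests were chosen with earlier results of these data known. Ratios use unscaled CPM. Differences were fitted with limma 3.58.1 (R 4.3.3) on log2(CPM + 1) after TMM scaling (factors 0.981 to 1.03), with a mean trend and robust shrinkage, over the 10210 genes of at least 5 CPM; all 155 members were tested, and also pass a filter of 10 reads at the median depth in 6 libraries. The rule, and the fit of bead alone to all 12 libraries without TMM scaling, were tested on simulated data. The other fits were not. Adjustment was by Benjamini-Hochberg over all tested genes, with a threshold of 0.05. Genes were named by a fixed rule: the 2 members with the highest mean CPM, and the 2 largest rises and 2 largest falls among members past the threshold in numbers 1 to 5 with the block. Planned marker lists (Z, W and cell types) were not used, since 0 identifiers could be matched. No 2 libraries were duplicates (chi-square per degree of freedom at least 2.82 over 66 pairs). Same-numbered libraries deviated together from their group means in numbers 1 to 5 (correlations 0.127 to 0.305 across genes) and not in number 6 (-0.124). The planned main fits used the bead alone, both with all 12 libraries and in numbers 1 to 5. Fits with the replicate block are given beside them as alternatives. Alternatives were other scalings, filters, pseudocounts, limma-voom, the block and leaving out numbers.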

Additional observations from a re-analysis of the deposited data

How the results depend on the processing

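The 155 genes became 132 under TMM or median-of-ratios scaling and 127 to 171 under other CPM minimums, within 1.5 times of the first count. Asking for the 2 libraries of a single number gave 450 genes without number 2 and 350 without number 6, all 155 included in both, with 172 and 169 in the last rows; fewer libraries have to separate there. The median ratio of 0.590 stayed between 0.585 and 0.604 in the 10 alternatives run. All of these used members already chosen by the rule, so the agreement is partly built in. The members in the last rows numbered 111 with the last 400 examined genes and 129 with the last 500, an alternative chosen after seeing the data.

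The bead count over all 12 libraries was 0 in all 14 alternatives, the replicate block and a term for numbers 2 and 6 included. An unadjusted p below 0.05 was found for 0 to 20 members (limma or limma-voom). With the replicate block it was found for 20, or 12.9% of the members, against 13.2% of all genes. Of all genes tested, 0 to 38 were called in these alternatives, except 1107 without number 6. In numbers 1 to 5, whose count was 0 by limma and limma-voom, the replicate block gave 14 and leaving out number 2 gave 9. Of all 10210 genes, 1484 were called with the block and 964 without number 2. The cause was not tested beyond the low level of number 2. Leaving out other numbers gave 0, where 796 to 958 of all genes were called, so the range was 0 to 9 without the block. With the replicate block it was 7 to 13, lowest without number 5 (7) and number 1 (9), and 1132 to 1290 of all genes were called. These fits were added after seeing the data. The 4 genes named for the bead kept their direction in all 116 values. They were chosen from these libraries, and the block or a term for numbers 2 and 6 leaves a log2 change as it was. This agreement is therefore no separate evidence, and in number 6 alone only ENSGALG00010007259 kept its direction. In numbers 1 to 5 with the block, only ENSGALG00010013183 stayed past the threshold whichever of these numbers was left out. Depth limits small ratios of genes below 10 CPM. For the 89 genes of 5 to 10 CPM in the last rows, the median standard error was 0.30 on the log2 scale.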

Other observations

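Genes just outside the rule lay mostly in earlier rows, with some in the last rows. In 209 of the 10210 genes of at least 5 CPM, 3 of the 4 libraries lay below all 8 others. Of these 209, 61 were in the last 460 examined rows, which hold 4.51% of the genes examined. Below the minimum of 5 CPM, 16 further genes separated the 4 libraries from the 8, with a median ratio of 0.293 and means up to 4.90 CPM, and 4 of these were in the last rows.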
